A study of Arabidopsis thaliana with 30 samples.

Results

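The WRKY transcription factor family of Arabidopsis thaliana was followed through nitrogen starvation and through gain of the transcription factor AtNIGT1.2 in seedling shoots and roots. Members were the probe sets assigned to a single locus whose gene symbol or target description holds the letters WRKY, with the probe set of highest mean kept per locus. The rule found 59 genes of the 21227 genes with a probe set of their own, and the same 59 in both tissues. Each was measured by 1 probe set, and all 59 loci had an entry in RefSeq's gene table.

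Expression was measured in 10-day-old seedlings on 30 Affymetrix arrays, in 5 groups of 3 arrays for shoots and the same 5 for roots. Wild type Col-0 seedlings were moved at 7 days of age to plates with 5 mM NH4NO3 (nitrogen-sufficient) or with no nitrogen source (starved), where they stayed for 3 days. An AtNIGT1.2 overexpressor was starved in the same way, and no nitrogen-sufficient overexpressor was analysed here. A line with an estradiol-inducible AtNIGT1.2-VP construct spent its last 24 h, from 9 days of age, on 5 mM NH4NO3 with estradiol (induced) or without it (mock). The labels do not spell out VP, give no promoter for the overexpressor and do not say how many independent lines were used. No wild type given estradiol was analysed here, so an effect of estradiol itself and an effect of the induced protein cannot be told apart.

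WRKY proteins are plant transcription factors that carry a DNA-binding domain named after its conserved tryptophan, arginine, lysine and tyrosine residues, followed by a zinc finger, and that bind the W-box element of promoters. The family is sorted into group I, which has a pair of WRKY domains, group II, with subgroups a to e, and group III, which has another type of zinc finger. Many members are induced within minutes to hours by pathogens, wounding or osmotic stress, and are phosphorylated by MAP kinases or bound by VQ-motif proteins. Others act in leaf senescence, in phosphate starvation or in the patterning of trichomes and seeds. AtNIGT1.2 belongs to the GARP-type NIGT1 proteins, which are known in Arabidopsis as repressors in the nitrate response.

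Values are RMA expression levels on the log2 scale, and a log2 change is a difference between the means of 2 groups with the standard error (SE) of the fit. A gene is said to have risen or fallen where its limma p-value, adjusted by the Benjamini-Hochberg method over all 15922 probe sets tested in the tissue, lay under 0.05. The titles call the replicates biological, and the p-values speak of the spread among these arrays only. Genes were tested where their mean over the 15 arrays of a tissue reached the 30th percentile, which was 5.03 in shoots and 5.33 in roots. Of the 59 WRKY genes, 35 were tested in both tissues, 4 in shoots alone (WRKY40, WRKY28, WRKY8 and WRKY44), 8 in roots alone (WRKY9, WRKY14, WRKY31, WRKY35, WRKY36, WRKY61, WRKY71 and WRKY72) and 12 in neither. Shoots and roots were deposited as separate tables, so no fold change or test was made between them, and WRKY levels were not set against each other across tissues. Because the arrays measure whole shoots and roots, fewer cells of a type and less RNA per cell cannot be told apart.

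The labelled states of the samples were visible in the arrays. AtNIGT1.2 was at 13.82 to 13.97 in overexpressor shoots against 6.39 to 8.07 in starved wild type shoots, and at 12.38 to 12.63 in induced against 9.48 to 9.64 in mock VP shoots. In roots the AtNIGT1.2 levels were 13.60 to 13.75 against 7.74 to 7.89, and 13.29 to 13.38 against 9.17 to 9.23. The array means of 3 leaf genes (RCA, LHCB3 and GAPB) lay between 12.42 and 13.43 in shoots and between 6.05 and 9.22 in roots. Those of 6 root genes, CASP1 and RHD6 among them, lay between 5.02 and 5.41 in shoots and between 8.47 and 9.57 in roots. Arrays of a group correlated with r of 0.994 to 0.999 over all probe sets.

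**Figure D1:**
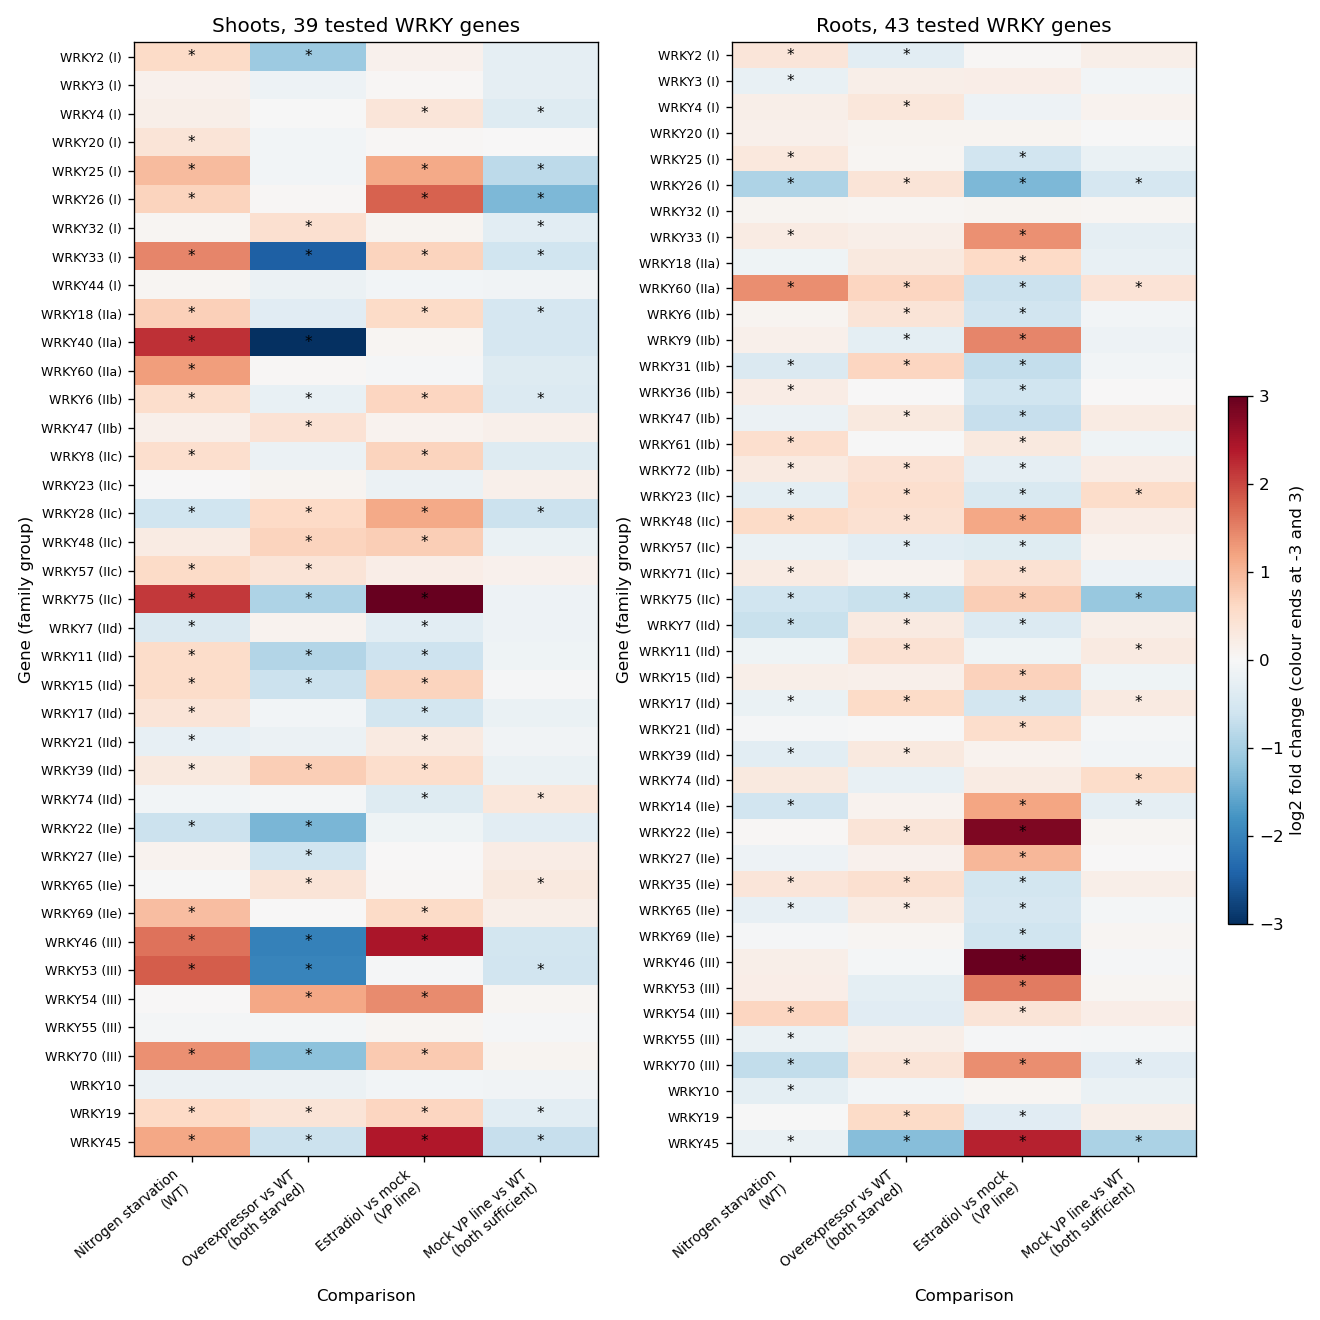
Log2 fold change of every tested WRKY gene (rows, with the family group in brackets where listed) in 4 comparisons (columns) in shoots and roots. Colour runs from blue (lower) through white to red (higher), and a star marks an adjusted p under 0.05. In shoots the starvation column is mostly red, and WRKY40, WRKY33, WRKY46 and WRKY53 are deep blue in the overexpressor; in roots the estradiol column holds the deepest colours.

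Nitrogen starvation raised most of the tested family in wild type shoots. Of 39 tested WRKY genes, 22 rose and 4 fell, while among all probe sets tested 27.8% rose and 26.3% fell. The median log2 change was 0.39 over the tested WRKY genes and 0.00 over all genes tested. Changes of at least 1 on the log2 scale were reached upward by 8 WRKY genes and downward by 0, against 4.82% and 3.08% of all probe sets. The arrays of starved and sufficient shoots did not overlap for 28 of the 39, against 62.4%. The 8 were WRKY40, WRKY75, WRKY53, WRKY46, WRKY33, WRKY70, WRKY60 and WRKY45.

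By family group, all 3 genes of group IIa, WRKY18, WRKY40 and WRKY60, rose in starved shoots, against 27.8% of all probe sets. They encode proteins that bind one another and act in the control of defence and abscisic acid responses. WRKY40 (AT1G80840) was at 10.62, 11.11 and 10.92 in the 3 starved arrays and at 9.23, 8.41 and 8.44 in the 3 sufficient arrays. All starved arrays stood above all sufficient ones, of which replicate 1 was the highest. The log2 change was 2.19 ± 0.19 (adjusted p 1.56e-07), a 4.57-fold rise. WRKY60 (AT2G25000) was at 8.32, 7.55 and 7.49 against 6.58, 6.66 and 6.38, again without overlap, and rose by 1.25 ± 0.17 on the log2 scale (adjusted p 1.15e-05). WRKY18 (AT4G31800) rose by 0.70 ± 0.16 (adjusted p 0.00133), from 9.24 ± 0.31 to 9.95 ± 0.15 (mean ± SD, n = 3).

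Group III genes, many of which act with salicylic acid in defence and leaf senescence, split in starved shoots. Of 5 tested, 3 were higher and 0 lower, against 27.8% and 26.3% of all probe sets. WRKY53 (AT4G23810), a promoter of leaf senescence, was at 8.54, 8.82 and 8.96 when starved and at 7.33, 6.78 and 6.78 when sufficient. Its groups did not overlap, and it rose by 1.81 ± 0.17 (adjusted p 2.88e-07). WRKY46 (AT2G46400), which acts in basal defence and drought responses, rose by 1.62 ± 0.22 (adjusted p 1.32e-05), with 8.58, 8.77 and 8.19 against 7.01, 6.93 and 6.74. WRKY70 (AT3G56400), which links salicylic acid and jasmonate signalling, was at 10.22, 10.13 and 10.12 against 8.74, 8.79 and 8.79. The arrays of each WRKY70 group lay close together, and the change was 1.38 ± 0.12 (adjusted p 1.75e-07). WRKY54 (AT2G40750), the close relative of WRKY70, had a log2 change of 0.01 with a 95% interval of -0.42 to 0.43.

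In group I, 5 of 9 tested genes rose in starved shoots and 0 fell, against 27.8% and 26.3% of all probe sets. WRKY33 (AT2G38470), the activator of camalexin synthesis and of resistance to necrotrophic fungi, was at 10.73, 11.19 and 11.14 against 10.04, 9.23 and 9.41. The groups stood apart, with sufficient replicate 1 again the highest of its group, and WRKY33 rose by 1.46 ± 0.17 (adjusted p 2.47e-06). WRKY25 and WRKY26, which act with WRKY33 in heat tolerance, rose by 0.94 ± 0.14 and 0.66 ± 0.14. WRKY2, an abscisic acid response gene that acts in seeds and pollen, rose by 0.58 ± 0.11. WRKY69 of group IIe rose by 0.92 ± 0.10 (adjusted p 1.97e-06). WRKY44 (TTG2), a regulator of trichome and seed coat development, had a log2 change of 0.05 with an interval of -0.23 to 0.33.

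WRKY75 (AT5G13080) and WRKY45 (AT3G01970), both known from phosphate starvation responses and leaf senescence, rose in starved shoots. WRKY75 was at 7.18, 6.61 and 5.84 in starved arrays and at 4.67, 4.41 and 4.21 in sufficient ones. The starved arrays were widely spread but all lay above the sufficient arrays, whose mean of 4.43 was under the 5.03 required of a tested gene over all arrays. The files used hold no detection calls, so such a low level may be background, and a change measured from it is then a minimum. WRKY75 rose by 2.11 ± 0.25 (adjusted p 2.77e-06), and WRKY45 by 1.17 ± 0.10 (adjusted p 1.64e-07). The falls were small. WRKY22 (AT4G01250), a defence gene downstream of the MAP kinases that respond to bacterial flagellin, fell by 0.65 ± 0.15 (adjusted p 0.00183), WRKY28, an activator of salicylic acid synthesis, by 0.60 ± 0.16 (adjusted p 0.00403), and the calmodulin-binding WRKY7 by 0.43 ± 0.09 (adjusted p 0.000732). WRKY21 fell by 0.25 ± 0.08 (adjusted p 0.0202), a call lost without starved replicate 2 (adjusted p 0.0542), sufficient replicate 2 (0.0957) or sufficient replicate 3 (0.06).

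Lists of genes that work around WRKY factors were counted in the same starved shoots, where 27.8% of all probe sets rose and 26.3% fell. Of 10 MAP kinase cascade genes, 9 rose and 0 fell, among them the kinase kinase MKK9 by 1.68 ± 0.11 and the kinase MPK3, which phosphorylates WRKY33, by 1.08 ± 0.08. Of 6 VQ-motif genes, 5 rose and 1 fell, and SIB1, a partner of WRKY33, rose by 2.03 ± 0.17. Of 15 tested genes listed as targets of WRKY factors, 7 rose, 1 fell and 7 did not pass. Among the targets tested, ACS6 rose furthest: it is an ethylene synthesis gene and rose by 2.05 ± 0.21. Early wound and touch genes moved in the same samples: 16 of 21 rose and 0 fell, and their array means were 9.63 to 9.81 in starved and 8.56 to 8.81 in sufficient shoots. The part of a wound or touch response in the WRKY values was not tested.

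**Figure D2:**
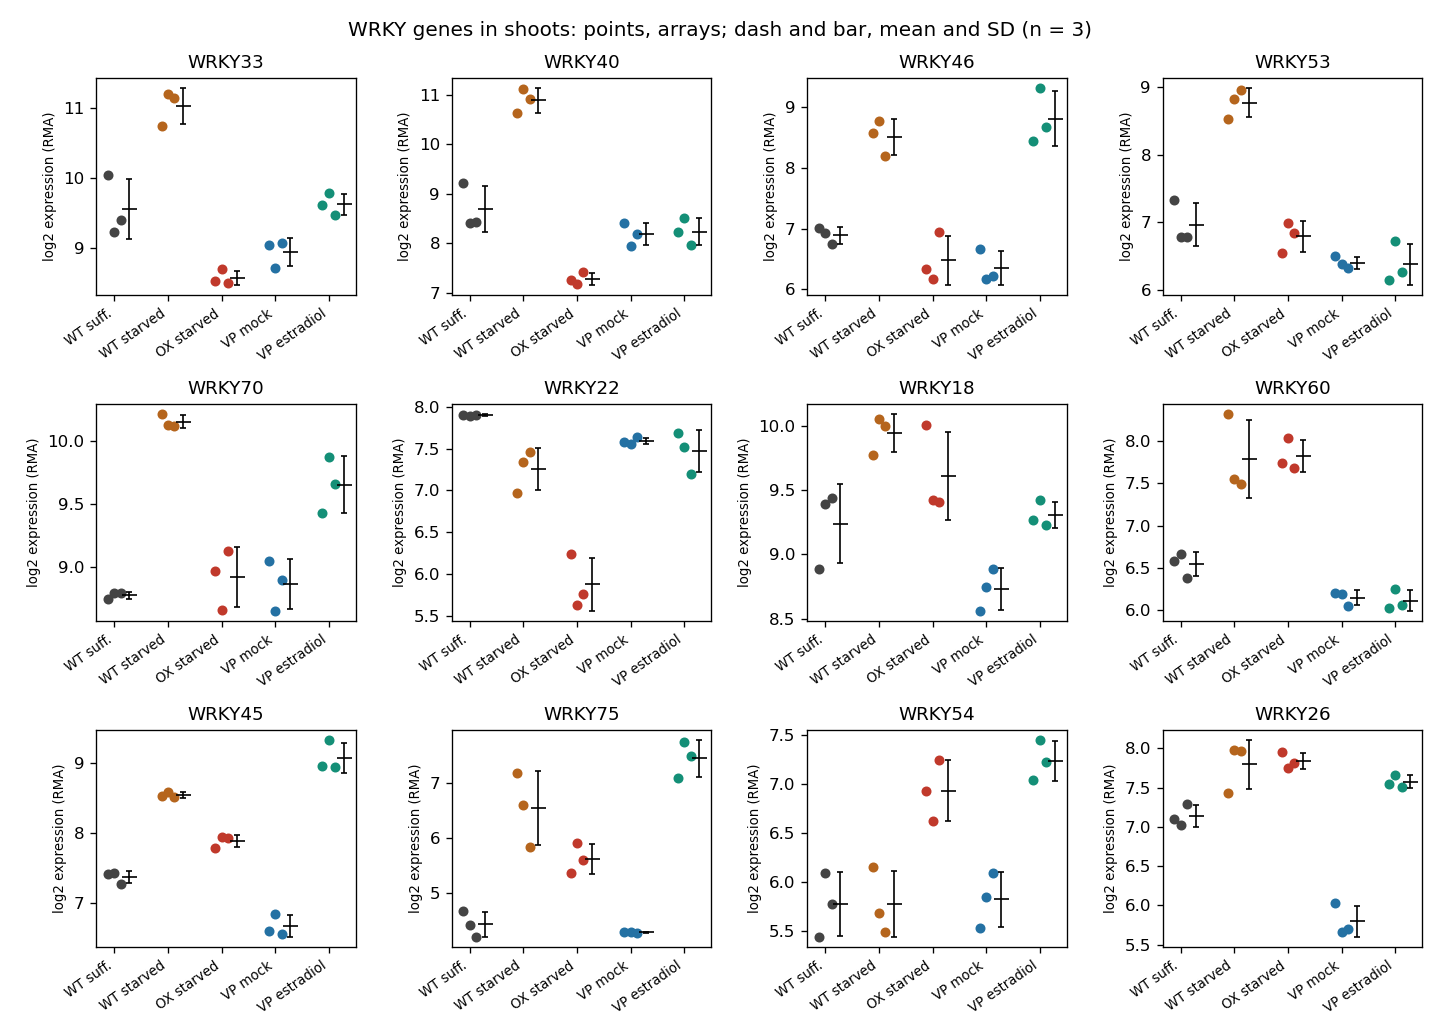
Levels of 12 WRKY genes in shoots, in log2 units, with a scale of its own for each gene. Points are arrays, grouped as nitrogen-sufficient wild type, starved wild type, starved overexpressor, mock VP line and estradiol-treated VP line; the dash and bar beside them are the mean and SD of 3 arrays. Starved wild type stands highest of the 5 groups for WRKY33, WRKY40 and WRKY53, while the estradiol-treated line is highest for WRKY45 and WRKY75.

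In shoots of the starved overexpressor, WRKY40, WRKY33 and other WRKY genes were far lower than in starved wild type. Against starved wild type, 13 of 39 tested WRKY genes fell and 9 rose, while 20.7% of all probe sets fell and 30.6% rose. Falls of at least 1 on the log2 scale were made by 7 WRKY genes, WRKY40, WRKY33, WRKY46, WRKY53, WRKY22, WRKY70 and WRKY2, against 4.03% of all probe sets. A rise of that size was made by 1, WRKY54, against 1.86%. The arrays of the groups did not overlap for 24 of the 39, against 57.6%. The median log2 change of the tested WRKY genes was -0.09, against 0.06 over all genes. This comparison and the one of starvation use the same 3 starved wild type arrays, so a high value in them lowers the change with overexpression and raises the change with starvation.

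WRKY40 was at 7.25, 7.18 and 7.43 in overexpressor shoots, below every starved wild type array and every sufficient one. Its log2 change against starved wild type was -3.60 ± 0.19 (adjusted p 4.7e-10), or 12.1-fold lower. Against nitrogen-sufficient wild type, which shares no array with starved wild type, WRKY40 was lower by a log2 change of -1.41 ± 0.19 (adjusted p 8.39e-06). WRKY33 was at 8.54, 8.70 and 8.51, also below all wild type arrays of both nitrogen states. It fell by 2.44 ± 0.17 (adjusted p 1.01e-08) against starved and by 0.98 ± 0.17 (adjusted p 9.59e-05) against sufficient wild type. WRKY22 was at 6.24, 5.63 and 5.76 in the overexpressor, at 6.97, 7.34 and 7.46 in starved wild type and at 7.91, 7.89 and 7.91 in sufficient wild type. Each of these WRKY22 groups stood apart from the others, in that order. WRKY22 fell by 1.38 ± 0.15 (adjusted p 1.75e-06) against starved and by 2.03 ± 0.15 (adjusted p 8.46e-09) against sufficient wild type.

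The group III genes WRKY46, WRKY53 and WRKY70 were in overexpressor shoots near their nitrogen-sufficient wild type levels. WRKY46 was at 6.33, 6.17 and 6.94, which overlapped the sufficient arrays and lay below the starved ones. It fell by 2.04 ± 0.22 (adjusted p 1.59e-06) against starved wild type. The difference from sufficient wild type was -0.41 with an interval of -0.89 to 0.06, and without overexpressor replicate 3, the highest of its group, it was -0.64 (adjusted p 0.0197). WRKY53 was at 6.54, 6.98 and 6.85 and fell by 1.98 ± 0.17 (adjusted p 1.11e-07), with an interval of -0.53 to 0.19 for the difference from sufficient wild type. WRKY70 was at 8.97, 8.66 and 9.13 and fell by 1.24 ± 0.12 (adjusted p 5.94e-07), with an interval of -0.12 to 0.41 against sufficient wild type. In the same group, WRKY54 was at 6.93, 6.62 and 7.25, above all arrays of starved wild type (6.15, 5.68 and 5.49), and rose by 1.16 ± 0.20 (adjusted p 0.000181).

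Other WRKY genes raised by starvation had smaller changes in overexpressor shoots, and some did not pass the test. WRKY60 was at 7.75, 8.04 and 7.69 in overexpressor shoots, a log2 change of 0.04 with an interval of -0.32 to 0.39, and stood 1.28 ± 0.17 (adjusted p 4.92e-06) above sufficient wild type. WRKY25 had a change of -0.08 with an interval of -0.38 to 0.21. WRKY18 had a change of -0.33 (adjusted p 0.0936), which became -0.53 (adjusted p 0.00664) without overexpressor replicate 1, at 10.01 the highest array of its group. WRKY45 fell by 0.65 ± 0.10 (adjusted p 7.59e-05), to 7.79, 7.95 and 7.93, between the starved and the sufficient wild type arrays. WRKY75 fell by 0.92 ± 0.25 (adjusted p 0.00582), with 5.36, 5.91 and 5.60. Its highest overexpressor array lay above the lowest starved one, and without starved wild type replicate 1 the change was -0.60 (adjusted p 0.0339).

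Among the remaining falls in overexpressor shoots were those of WRKY2 by 1.08 ± 0.11 (adjusted p 6.74e-07), of WRKY11, a negative regulator of basal resistance, by 0.89 ± 0.11 (adjusted p 8.15e-06), of WRKY15 by 0.64 ± 0.11 (adjusted p 0.000118) and of WRKY27 by 0.60 ± 0.10 (adjusted p 0.000123). WRKY6 (AT1G62300), a repressor of the phosphate exporter gene PHO1, fell by 0.23 ± 0.08 (adjusted p 0.0308). The WRKY6 call was lost without overexpressor replicate 1 (adjusted p 0.0796) or 3 (0.105) or starved wild type replicate 1 (0.102) or 2 (0.0763). The rises after that of WRKY54 were those of WRKY39 by 0.75 ± 0.07 (adjusted p 5.75e-07), WRKY48, a negative regulator of basal resistance, by 0.67 ± 0.12 (adjusted p 0.000324), WRKY28 by 0.59 ± 0.16 (adjusted p 0.00504), WRKY32, WRKY47, WRKY65, WRKY19 and WRKY57. The last 5 rose by 0.39 to 0.47. WRKY57, which acts in drought tolerance and senescence, lost its call without overexpressor replicate 2 (0.30, adjusted p 0.0722) or starved wild type replicate 3 (0.29, adjusted p 0.0785).

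Early wound and touch genes fell in overexpressor shoots, where 20.7% of all probe sets fell and 30.6% rose. Of the 39 tested WRKY genes, 13 fell, 9 rose and 17 did not pass in the same comparison. All 21 of the 21 on the list fell, by a median log2 change of -2.15, and their array means were 7.51 to 7.60, below the 9.63 to 9.81 of starved and the 8.56 to 8.81 of sufficient wild type. ERF6 fell by 3.40 ± 0.13 and JAZ7 by 3.67 ± 0.21. Of the MAP kinase cascade genes 2 fell and 3 rose, with MKK9 falling by 2.96 ± 0.11 and MPK3 by 1.25 ± 0.08. Of the VQ-motif genes 4 of 6 fell and 1 rose. Of the 15 listed targets 6 fell and 3 rose, with ACS6 falling by 2.19 ± 0.21 and ABI5, a seed abscisic acid response gene, rising by 1.06 ± 0.09. The part of the wound and touch genes' change in the WRKY values was not tested.

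Against nitrogen-sufficient wild type, 18 of 39 tested WRKY genes stood higher in starved overexpressor shoots and 9 lower, while 36.8% and 27.6% of all probe sets did. The arrays did not overlap for 27 of the 39, against 68.4%. Those that stood at least 1 higher on the log2 scale were WRKY60, WRKY75, WRKY54 and WRKY39, at 1.28, 1.2, 1.16 and 1.04, against 6.58% of all probe sets, and those at least 1 lower were WRKY22 and WRKY40, against 6.98%. WRKY11 stood lower by a log2 change of -0.33, a call lost without overexpressor replicate 3 (-0.19, adjusted p 0.117) or sufficient replicate 1 (-0.27, adjusted p 0.0727). WRKY18 stood higher by 0.37, a call lost without overexpressor replicate 1 (0.18, adjusted p 0.305) or sufficient replicate 1 (0.19, adjusted p 0.277). The pair of groups differs in both genotype and nitrogen.

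Induction of AtNIGT1.2-VP for 24 h under sufficient nitrogen raised WRKY genes in shoots. Of 39 tested, 19 rose and 4 fell, while 23.8% of all probe sets rose and 25.5% fell. Rises of at least 1 on the log2 scale were made by 7 WRKY genes and falls of that size by 0, against 3.67% and 1.36% of all probe sets. Induced and mock arrays did not overlap for 24 of the 39, against 58.5%. The median log2 change was 0.21 over the tested WRKY genes and -0.04 over all genes. This comparison uses no wild type or overexpressor array.

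WRKY75 had low mock levels in shoots. It was at 4.28 in all 3 mock arrays, under the level required of a tested gene, and at 7.09, 7.75 and 7.49 with estradiol. The measured WRKY75 change was 3.16 ± 0.25 (adjusted p 6.67e-08), which is a minimum if the mock level is background. WRKY46 was at 8.44, 9.31 and 8.68 with estradiol and at 6.67, 6.17 and 6.22 in mock shoots, and rose by 2.46 ± 0.22 (adjusted p 2.95e-07). WRKY45 was at 8.95, 9.33 and 8.94 against 6.61, 6.85 and 6.57, and rose by 2.40 ± 0.10 (adjusted p 5.48e-11). For none of these 3 genes did induced and mock arrays overlap.

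The other shoot genes that rose by at least 1 were WRKY26, WRKY54, WRKY28 and WRKY25. WRKY26 (AT5G07100) was at 7.55, 7.67 and 7.51 against 6.02, 5.66 and 5.70, a change of 1.78 ± 0.14 (adjusted p 4.52e-08). Its mock level was itself low: WRKY26 was lower in mock VP than in sufficient wild type shoots by a log2 change of -1.34 ± 0.14 (adjusted p 4.12e-06). WRKY54 was at 7.04, 7.45 and 7.22 against 5.53, 5.85 and 6.09, and rose by 1.42 ± 0.20 (adjusted p 3.19e-05). WRKY28 rose by 1.15 ± 0.16 (adjusted p 2.13e-05) and WRKY25 by 1.13 ± 0.14 (adjusted p 6.94e-06). WRKY70 rose by 0.79 ± 0.12 (adjusted p 7.36e-05), WRKY33 by 0.67 ± 0.17 (adjusted p 0.00383), WRKY6 by 0.64 ± 0.08 (adjusted p 1.53e-05) and WRKY18 by 0.58 ± 0.16 (adjusted p 0.00685). Mock levels of WRKY25, WRKY28, WRKY33, WRKY6 and WRKY18 were also called lower than in sufficient wild type, while WRKY54 and WRKY70 had no such call. The WRKY18 call was lost without mock replicate 1 (adjusted p 0.082) or 2 (0.052) or sufficient replicate 2 (0.0807) or 3 (0.0969). WRKY33, WRKY18 and WRKY6 had induced means of 9.63, 9.31 and 7.91, against 9.56, 9.24 and 7.68 in sufficient wild type. Their rises from mock thus ended near the wild type level.

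Several WRKY genes named above, 3 of which had fallen in overexpressor shoots (WRKY40, WRKY53 and WRKY22), did not pass the test after induction. WRKY40 was at 8.23, 8.51 and 7.97 with estradiol and at 8.40, 7.95 and 8.20 without, a change of 0.05 with an interval of -0.36 to 0.46. WRKY53 had a change of -0.02 with an interval of -0.38 to 0.34. For WRKY22 it was -0.12 with an interval of -0.45 to 0.20, and for WRKY60 -0.04 with an interval of -0.39 to 0.32. The induced and mock arrays of WRKY40, WRKY53, WRKY22 and WRKY60 overlapped. The 4 falls were those of WRKY11 by 0.61 ± 0.11, its relative WRKY17 by 0.55 ± 0.09, WRKY74 by 0.39 ± 0.09 and WRKY7 by 0.31 ± 0.09, all in the calmodulin-binding group IId. The other 3 of the 7 tested genes of that group, WRKY15, WRKY39 and WRKY21, rose. Among all probe sets 25.5% fell and 23.8% rose.

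Listed targets of WRKY factors rose with induction in shoots, 10 of 15 with 1 lower. Among all probe sets tested, 23.8% rose and 25.5% fell. The camalexin synthesis genes PAD3 and CYP71A13, both targets of WRKY33, rose by 4.52 ± 0.38 and 2.61 ± 0.23, and the salicylic acid marker PR1 by 2.39 ± 0.31. All 6 VQ-motif genes rose, SIB2 by 2.13 ± 0.12 and SIB1 by 1.55 ± 0.17. Of the 10 cascade genes, 7 rose and 0 fell, among them MKK1 by 1.18 ± 0.11. Of the 21 wound and touch genes, 7 rose and 10 fell, and their array means overlapped, at 8.23 to 8.59 with estradiol and 8.43 to 8.71 in mock shoots.

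The mock-treated VP line differed from nitrogen-sufficient wild type before any estradiol. The groups differ in line, in age at transfer and in time on the plates, which cannot be told apart. In shoots 11 of 39 tested WRKY genes were lower and 2 higher, against 15.8% and 17.7% of all probe sets. The arrays did not overlap for 22 of the 39, against 48.4%. A difference of at least 1 on the log2 scale was found downward for 1, WRKY26, against 1.15%, and upward for 0, against 0.528%. The largest differences were in group I: WRKY26 at -1.34 ± 0.14 and WRKY25 at -0.79 ± 0.14 (adjusted p 0.000504). WRKY45 stood lower by -0.70 ± 0.10 (adjusted p 0.000129) and WRKY6 by -0.41 ± 0.08 (adjusted p 0.00174). WRKY33 stood lower by -0.61 ± 0.17 (adjusted p 0.0122), a call lost without mock replicate 2 (-0.49, adjusted p 0.0671) or sufficient replicate 1 (-0.37, adjusted p 0.0588). Between 7 and 15 WRKY genes were called when an array was left out, in place of 13; the 7 came without mock replicate 2 and 8 without sufficient replicate 1.

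**Figure D3:**
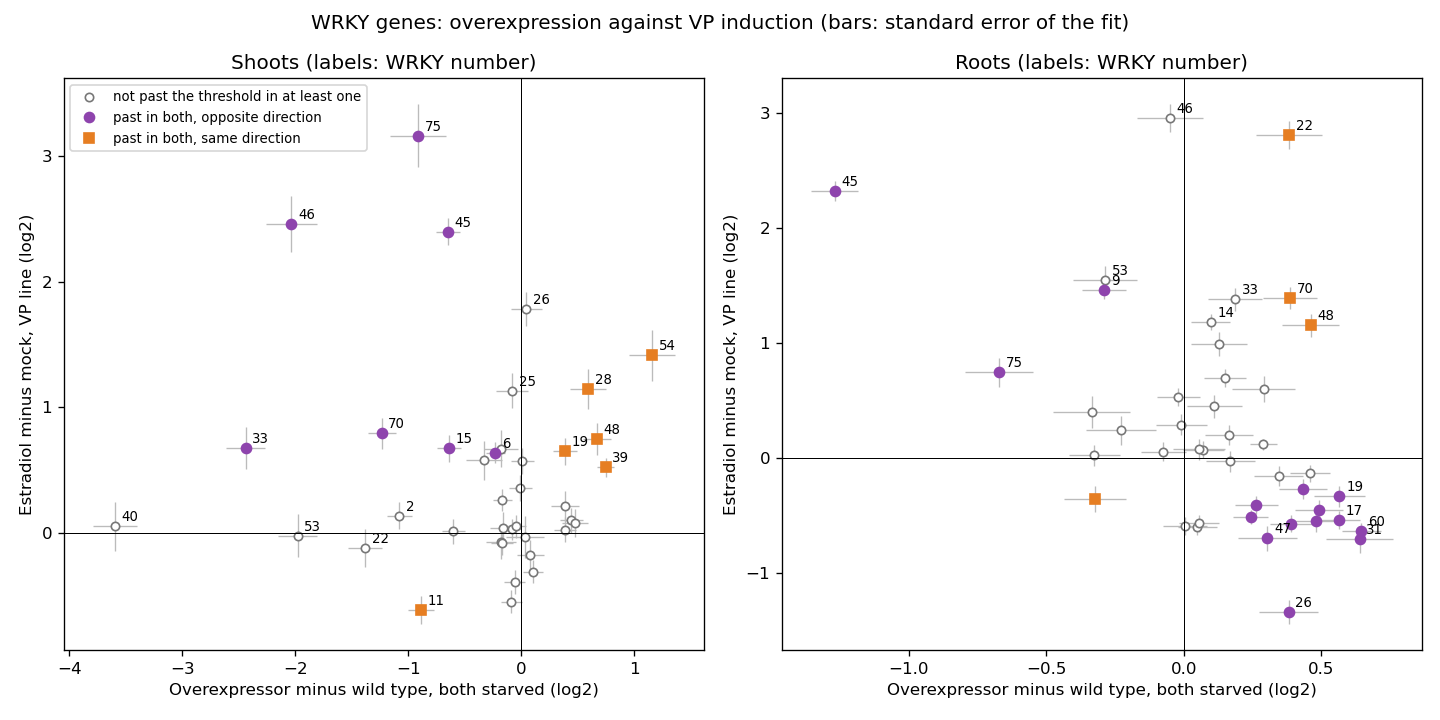
Log2 change of each tested WRKY gene in the overexpressor against starved wild type (horizontal) and with estradiol against mock in the VP line (vertical), in shoots and roots, with bars of 1 SE. Purple points passed the test in both with opposite signs, orange squares passed in both with the same sign, and open circles did not pass in at least 1. In shoots 7 purple points lie at upper left; in roots 3 lie at upper left and 12 at lower right.

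Overexpression and induction, which share no array, were set side by side for each member. The first was measured in starved seedlings and the second under sufficient nitrogen. In shoots, 7 of 39 tested WRKY genes fell in the overexpressor but rose when AtNIGT1.2-VP was induced, or 17.9%, against 4.17% of all probe sets tested. They were WRKY6, WRKY15, WRKY33, WRKY45, WRKY46, WRKY70 and WRKY75. The reverse was met by 0 of 39, against 5.31%. WRKY19, WRKY28, WRKY39, WRKY48 and WRKY54 were higher in both (5 of 39, against 10.1%), and WRKY11 was lower in both (1 of 39, against 8.65%). With an array left out the count was 6 or 7, and it was 6 without overexpressor replicate 3 or starved wild type replicate 1 or 2. Among the 7, the mock levels of WRKY6, WRKY33 and WRKY45 were called lower than in sufficient wild type.

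In roots the common pattern ran the other way. Of 43 tested WRKY genes, 12, or 27.9%, rose in the overexpressor but fell when AtNIGT1.2-VP was induced, against 7.85% of all probe sets. They were WRKY6, WRKY7, WRKY17, WRKY19, WRKY23, WRKY26, WRKY31, WRKY35, WRKY47, WRKY60, WRKY65 and WRKY72. WRKY9, WRKY45 and WRKY75 fell in the overexpressor and rose with induction (3 of 43, or 6.98%, against 5.09%). WRKY22, WRKY48 and WRKY70 were higher in both (3 of 43, against 2.34%), and WRKY57 was lower in both (1 of 43, against 5.34%). WRKY45 and WRKY75 were the 2 members of the family that fell with overexpression and rose with induction in both tissues. The share of all probe sets that did so in both was not counted. In roots the mock levels of WRKY45 and WRKY75 were themselves called lower than in sufficient wild type. WRKY75 had a mean of 7.93 in induced roots, below the 8.31 of sufficient wild type. With an array left out the count of 12 ran from 10 to 12, the 10 coming without overexpressor replicate 1. Among the 12, mock levels of WRKY17, WRKY23 and WRKY60 were called higher than in sufficient wild type, and that of WRKY26 lower. Induced means were 7.14 for WRKY23, 8.69 for WRKY17 and 6.96 for WRKY60. In sufficient wild type roots they were 7.05, 8.97 and 7.20, so induced WRKY23 was not below the wild type mean.

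In roots, nitrogen starvation changed WRKY genes in both directions and by smaller amounts. Of 43 tested, 11 rose and 14 fell, against 33.1% and 21.8% of all probe sets. With the array medians set equal, which lowers the change of every gene by 0.08, 8 rose and 17 fell. The shares of all probe sets that rose or fell in that setting were not counted. A rise of at least 1 on the log2 scale was made by WRKY60 alone, against 2.56% of all probe sets, and a fall of that size by 0, against 2.72%. The starved and sufficient arrays did not overlap for 20 of the 43, against 56.5%. WRKY60 was at 8.55, 8.58 and 8.62 in starved roots and at 7.21, 7.07 and 7.31 in sufficient roots, and rose by 1.39 ± 0.07 (adjusted p 9.86e-13). The median log2 change was -0.02 over the tested WRKY genes and 0.06 over all genes. Tissue markers moved in the same roots: 5 of 6 root markers rose and 1 fell, with array means of 9.40 to 9.57 in starved and 8.80 to 9.01 in sufficient roots, and all 3 leaf markers fell, with array means of 7.57 to 7.68 against 9.16 to 9.22. Their part in the WRKY values was not tested.

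Some genes that rose in starved shoots fell in starved roots. WRKY26 was at 6.28, 6.20 and 6.19 against 7.30, 7.0 and 7.15, and fell by 0.93 ± 0.11 (adjusted p 2.63e-07). WRKY70 was at 5.72, 5.61 and 5.75 against 6.48, 6.25 and 6.56, and fell by 0.73 ± 0.10 (adjusted p 2.5e-06). WRKY75 was at 7.54, 7.57 and 8.03 against 8.35, 8.08 and 8.51, and fell by 0.60 ± 0.12 (adjusted p 0.000351). In none of these 3 did starved and sufficient arrays overlap, although for WRKY75 the nearest pair lay 8.03 against 8.08. WRKY7 fell by 0.66 ± 0.08 (adjusted p 4.13e-07) and WRKY14 of group IIe by 0.58 ± 0.07 (adjusted p 5.94e-07). After WRKY60 the rises were those of WRKY54 by 0.64 ± 0.14 (adjusted p 0.000611), WRKY48 by 0.57 ± 0.10 (adjusted p 0.000103) and WRKY61 by 0.51 ± 0.09 (adjusted p 7.57e-05).

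The genes that led the response of starved shoots had other values in roots. WRKY46 had a log2 change of 0.18 with an interval of -0.07 to 0.43, WRKY53 of 0.21 with an interval of -0.03 to 0.45, and WRKY40 was not tested in roots. WRKY33 rose by 0.24 ± 0.10 (adjusted p 0.0471), with overlapping groups; the call was lost without starved replicate 2 (adjusted p 0.0609) or 3 (0.15, adjusted p 0.226) or sufficient replicate 1 (adjusted p 0.0582) or 2 (0.14, adjusted p 0.264). WRKY45 fell by 0.21 ± 0.09 (adjusted p 0.0481), also with overlap, and lost the call without starved replicate 1 (adjusted p 0.0954) or 2 (0.155) or sufficient replicate 1 (-0.12, adjusted p 0.262) or 3 (0.0944).

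**Figure D4:**
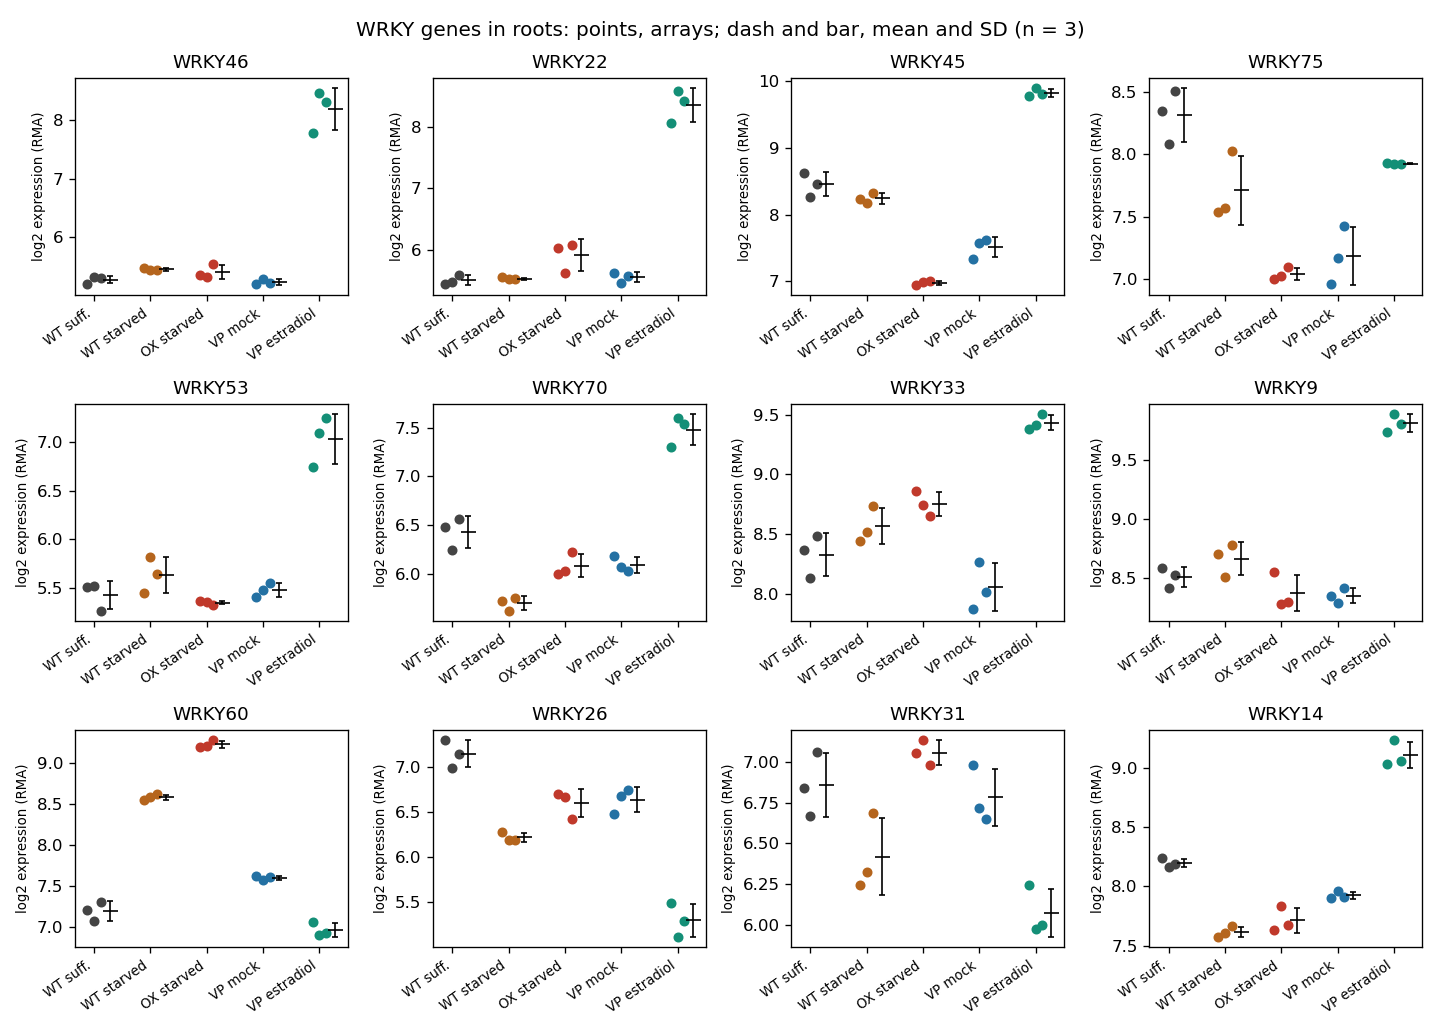
Levels of 12 WRKY genes in roots, in log2 units, with a scale of its own for each gene. Points are arrays in the same 5 groups as for shoots, and the dash and bar are the mean and SD of 3 arrays. For WRKY46, WRKY22, WRKY53, WRKY70, WRKY33, WRKY9 and WRKY14 the estradiol-treated VP line stands above the other 4 groups, while WRKY60 is highest in the starved overexpressor and WRKY26 lowest in the estradiol-treated line.

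In overexpressor roots more WRKY genes rose than fell, mostly by small amounts. Of 43 tested, 18 rose and 5 fell against starved wild type, while 21.4% of all probe sets rose and 16.7% fell. A rise of at least 1 on the log2 scale was made by 0, against 0.427%, and the arrays did not overlap for 25 of the 43, against 47.2%. The median log2 change was 0.17 over the tested WRKY genes and 0.04 over all genes. WRKY60 was at 9.20, 9.21 and 9.28, above all starved wild type arrays, and rose by 0.65 ± 0.07 (adjusted p 3.38e-07). It thereby stood 2.03 ± 0.07 (adjusted p 7.1e-16) above sufficient wild type roots, which share no array with either. WRKY31 was at 7.06, 7.13 and 6.98 against 6.24, 6.32 and 6.69, and rose by 0.64 ± 0.12 (adjusted p 0.000264).

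The rises in overexpressor roots included the closely related WRKY11 and WRKY17 at 0.46 ± 0.07 and 0.56 ± 0.08, WRKY6 at 0.39 ± 0.08 (adjusted p 0.000416) and WRKY70 at 0.39 ± 0.10 (adjusted p 0.00403). WRKY22 rose by 0.38 ± 0.12 (adjusted p 0.0164), a call lost without overexpressor replicate 1 (adjusted p 0.0716) or 3 (0.0915). WRKY7 rose by 0.26 ± 0.08, a call lost without overexpressor replicate 1 (adjusted p 0.0859) or starved replicate 1 (0.0792). WRKY47, which acts under boron deficiency, rose by 0.30 ± 0.11, a call lost without overexpressor replicate 1 (adjusted p 0.119) or 2 (0.0677) or starved replicate 2 (0.0683) or 3 (0.0771). WRKY57 fell by 0.32 ± 0.11, a call lost without overexpressor replicate 1 (adjusted p 0.115) or 3 (0.0511) or starved replicate 2 (0.0881) or 3 (0.0805).

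WRKY45 made the single fall of at least 1 on the log2 scale in overexpressor roots, against 2.2% of all probe sets. It was at 6.94, 6.99 and 7.0 in the overexpressor and at 8.24, 8.17 and 8.33 in starved wild type. The groups stood far apart, and WRKY45 fell by 1.27 ± 0.09 (adjusted p 1.48e-10), or 2.41-fold. WRKY75 was at 7.0, 7.02 and 7.10 against 7.54, 7.57 and 8.03, and fell by 0.67 ± 0.12 (adjusted p 0.00021). WRKY2 fell by 0.32 ± 0.09 (adjusted p 0.00795) and WRKY9 by 0.29 ± 0.08 (adjusted p 0.00738), the latter with overlapping groups. WRKY33, WRKY46 and WRKY53 did not pass, with changes of 0.19, -0.05 and -0.29; WRKY53 passed without starved replicate 1 (-0.38, adjusted p 0.0232).

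Against nitrogen-sufficient wild type roots, 17 of 43 tested WRKY genes stood higher in the starved overexpressor and 8 lower, while 41% and 23.9% of all probe sets did. The arrays did not overlap for 26 of the 43, against 66.9%. WRKY60 at 2.03 and WRKY48 at 1.03 stood at least 1 higher on the log2 scale, against 3.45%, and WRKY45 at -1.48 and WRKY75 at -1.28 at least 1 lower, against 4.78%. For these 4 the overexpressor and sufficient arrays did not overlap.

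Around the WRKY genes, 9 of 14 tested targets rose in overexpressor roots and 2 fell, while 21.4% of all probe sets rose and 16.7% fell. CBP60G, a regulator of salicylic acid synthesis, rose by 3.13 ± 0.10, and PHO1, a phosphate exporter gene known to be repressed by WRKY6, fell by 0.96 ± 0.05. A link between the WRKY6 and PHO1 values was not tested. Of 17 tested wound and touch genes, 2 rose and 2 fell. Leaf genes fell in these roots too: the array means of the 3 leaf markers were 9.16 to 9.22 in sufficient wild type, 7.57 to 7.68 in starved wild type and 6.05 to 6.20 in the overexpressor. Their part in the root values was not tested.

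Induction of AtNIGT1.2-VP changed WRKY genes of roots in both directions. In roots 17 of 43 tested WRKY genes rose and 16 fell, against 15.6% and 28.3% of all probe sets. Rises of at least 1 on the log2 scale were made by 9 WRKY genes, WRKY46, WRKY22, WRKY45, WRKY53, WRKY9, WRKY70, WRKY33, WRKY14 and WRKY48, against 2.73% of all probe sets. The only fall of that size was that of WRKY26, against 1.57%. Induced and mock arrays did not overlap for 35 of the 43, against 59.4%. The median log2 change was 0.07 over the tested WRKY genes and -0.07 over all genes.

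WRKY46 was at 7.79, 8.47 and 8.31 in induced roots and at 5.20, 5.29 and 5.22 in mock roots. The mock mean lay under the 5.33 required of a tested gene, and every induced array stood far above it. The measured change was 2.95 ± 0.12 (adjusted p 1.65e-14), again a minimum if the mock level is background. WRKY22 was at 8.06, 8.59 and 8.42 against 5.62, 5.46 and 5.57, and rose by 2.80 ± 0.12 (adjusted p 4.24e-14), or 6.99-fold. WRKY45 was at 9.78, 9.89 and 9.81 against 7.34, 7.57 and 7.62, and rose by 2.32 ± 0.09 (adjusted p 3.15e-15). In the other 3 groups of roots WRKY46 and WRKY22 were between 5.20 and 6.08 in every array, below all induced arrays of either gene.

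WRKY53 was at 6.74, 7.10 and 7.24 in induced roots against 5.41, 5.48 and 5.55, and rose by 1.55 ± 0.11 (adjusted p 3.55e-10). WRKY70 was at 7.30, 7.61 and 7.54 against 6.18, 6.07 and 6.03, and rose by 1.39 ± 0.10 (adjusted p 1.96e-10). With WRKY46 and WRKY54, 4 of the 5 tested group III genes rose, against 15.6% of all probe sets. WRKY54 rose by 0.40 ± 0.14 (adjusted p 0.0248) with overlapping groups. The WRKY54 call was lost without induced replicate 1 (0.30, adjusted p 0.124), mock replicate 2 (0.23, adjusted p 0.187) or mock replicate 3 (0.34, adjusted p 0.0949), and the change was 0.62 (adjusted p 0.000161) without mock replicate 1.

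Outside group III, WRKY33 was at 9.38, 9.42 and 9.51 against 7.88, 8.27 and 8.02, and rose by 1.38 ± 0.10 (adjusted p 2.21e-10). WRKY9 of group IIb was at 9.74, 9.89 and 9.81 against 8.34, 8.29 and 8.42, and rose by 1.46 ± 0.08 (adjusted p 2.85e-12). All induced arrays of both genes stood above all mock arrays. WRKY14 rose by 1.18 ± 0.07 (adjusted p 1.2e-11), WRKY48 by 1.15 ± 0.10 (adjusted p 8.91e-09), and WRKY27, a gene that affects wilting under Ralstonia infection, by 0.99 ± 0.10 (adjusted p 6.97e-08). WRKY75 was at 7.93, 7.92 and 7.93 against 6.96, 7.17 and 7.42, and rose by 0.74 ± 0.12 (adjusted p 4.56e-05).

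In group IIb, 5 of 7 tested genes fell in induced roots and 2 rose, against 28.3% and 15.6% of all probe sets. WRKY31, WRKY47, WRKY36 and WRKY6 fell by 0.71 ± 0.12, 0.70 ± 0.11, 0.59 ± 0.08 and 0.57 ± 0.08 on the log2 scale. The fifth, WRKY72, which acts in basal defence against nematodes, fell by 0.27 ± 0.09 (adjusted p 0.0152), a call lost without induced replicate 2 (-0.21, adjusted p 0.0998). WRKY26 was at 5.49, 5.12 and 5.29 in induced and at 6.48, 6.68 and 6.75 in mock roots, and fell by 1.34 ± 0.11 (adjusted p 1.18e-09). Its induced mean of 5.30 lay under the 5.33 required of a tested gene over all arrays, so the fall may likewise be a minimum. WRKY60 was at 7.06, 6.90 and 6.92 against 7.62, 7.58 and 7.60, and fell by 0.64 ± 0.07 (adjusted p 2.25e-07). WRKY25 and WRKY69 each fell, by 0.57 ± 0.07 and 0.60 ± 0.07.

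Of the listed WRKY targets in induced roots, 5 of 14 rose and 1 fell, with PAD3 rising by 1.98 ± 0.12. Among all probe sets tested, 15.6% rose and 28.3% fell. Of 9 tested cascade genes 3 rose and 0 fell, with MKK9 rising by 1.36 ± 0.09. Of 17 wound and touch genes 10 rose and 3 fell, TCH3, a calmodulin-like touch gene, by 3.97 ± 0.14, and the array means of the list were 7.45 to 7.59 in induced and 6.99 to 7.05 in mock roots. The array means of the leaf markers were 7.74 to 7.85 with estradiol and 8.23 to 8.53 without it, and those of the root markers 8.47 to 8.61 and 9.06 to 9.14. The part of these lists in the WRKY values was not tested.

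In mock VP roots, 5 of 43 tested WRKY genes were higher than in sufficient wild type and 5 lower, against 12.1% and 6.1% of all probe sets. The arrays did not overlap for 15 of the 43, against 33%. A difference of at least 1 on the log2 scale was found downward for 1, WRKY75, against 0.214%, and upward for 0, against 0.138%. With the array medians set equal, which lowers the difference of every gene by 0.07, 3 were higher and 9 lower. The shares of all probe sets in that setting were not counted. WRKY75 stood lower by a log2 change of -1.13 ± 0.12 (adjusted p 2.28e-06) and WRKY45 by -0.94 ± 0.09 (adjusted p 2.08e-07), with no overlap between the groups. WRKY75 in induced roots, at 7.92 to 7.93, was thus still below the 8.08 to 8.51 of sufficient wild type, while WRKY45, at 9.78 to 9.89, was above its 8.27 to 8.63. WRKY60 stood higher by 0.41 ± 0.07 (adjusted p 0.000515) and WRKY23, which acts in auxin transport, by 0.55 ± 0.09 (adjusted p 0.000152).

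The 35 WRKY genes tested in both tissues can be read across shoots and roots by their calls. The share of all probe sets with such calls in both tissues was not counted. The counts below therefore describe the members alone and do not set them apart from other genes. Starvation raised 4 and lowered 1 in both tissues, and raised 6 in shoots that fell in roots. Overexpression raised 5 and lowered 3 in both, lowered 4 in shoots that rose in roots, and raised 1 in shoots that fell in roots. Induction raised 10 and lowered 2 in both tissues, raised 5 in shoots that fell in roots, and lowered 0 in shoots that rose in roots. The 10 were WRKY15, WRKY18, WRKY21, WRKY33, WRKY45, WRKY46, WRKY48, WRKY54, WRKY70 and WRKY75.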

How the data were processed

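Total RNA of seedling shoots and roots was hybridised to 30 Affymetrix arrays. The authors deposited log2 expression values, made with RMA per the file headers, as 1 table per tissue; the submitters' processing notes name MAS5 instead, and no genome build, tool version or detection call is given in the sources used here. They spanned 3.00 to 14.0 (shoots) and 3.50 to 13.8 (roots) and were used as log2 values. The number of arrays limits the precision. The deposited tables also hold the authors' p-values and q-values, per the file headers. Of the 59 WRKY genes, those with an authors' Benjamini-Hochberg value under 0.05 numbered 9 (starvation), 10 (overexpression) and 8 (induction) in shoots and 7, 3 and 20 in roots. Of all 22746 probe sets, 2868, 2131 and 2751 had such a value in shoots and 2533, 990 and 3395 in roots. WRKY genes with a q-value under 0.05 numbered 28, 18 and 27 in shoots and 23, 8 and 32 in roots. The share of all probe sets under that q-value was not counted. The authors' p-values are headed WelPval and cover probe sets not tested here, so their counts and those of the limma fit are not alike. The series-wide value table equalled the deposited tables within 5e-09. No deposited per-sample column was left unmapped.

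Probe sets were assigned through the locus column of the files, and symbols came from RefSeq's gene table (assembly TAIR10.1), which matched all 59 members. Family groups were written by hand from textbook knowledge for 55 members; WRKY10, WRKY19, WRKY45 and AT3G56390 were left without one. Groups and replicate numbers came from the sample titles. Each tissue's 15 arrays were fitted with limma 3.58.1 (R 4.3.3), with 1 mean for each of the 5 groups and a common spread, an intensity trend and two-sided moderated tests. The Benjamini-Hochberg adjustment covered the 15922 probe sets whose mean reached the 30th percentile. Intervals are 95% intervals of the fit. An exact permutation test of 3 against 3 arrays cannot give a p under 0.10, so none was used. Correlations between the deviations of same-numbered arrays ran from -0.455 to 0.179, and in no comparison were all 3 over 0.1. With induction in roots all 3 were weakly positive, at 0.028 to 0.094, and above the other pairs (-0.085 to -0.007). With induction in shoots all 3 were negative, at -0.455 to -0.182. On simulated data with 200 of 15922 probe sets changed, 56 to 90% of log2 changes of 0.5 and 95 to 100% of changes of 1 were recovered over the 10 comparisons, and 3.09 to 7.49% of calls were false. The simulated noise was independent between probe sets. In the data far larger shares were called, such as 27.8% higher and 26.3% lower with starvation in shoots. The simulated rates therefore need not hold for the calls of the data.

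Genes named in each comparison were the up to 8 largest rises and up to 8 deepest falls without overlap between groups, a list of well-known members, and those called in opposite directions in the overexpressor and the induced VP line. WRKY29 and WRKY62 of that list were not among the members found. The members, the companion lists (MAP kinase cascade, VQ-motif genes, targets, wound and touch genes, leaf and root genes) and the alternatives were chosen with earlier results of these data known. No list was tested as a set. The alternatives were other filters, no intensity trend, a replicate block, centred arrays, a fit of only the arrays of the groups compared and leaving out each array. The series-wide table and the use of every probe set of a locus, both planned as alternatives, hold the same values as the main setting and were not run.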

Additional observations from a re-analysis of the deposited data

Results flagged for a closer look

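Several named WRKY genes were called in opposite directions in shoots and roots, with no overlap between the arrays of the groups in either tissue. The difference between the tissues was not tested, because their tables were normalized separately. Each pair below is the log2 change in shoots and then in roots.

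With nitrogen starvation these were WRKY70 (1.38 and -0.73), WRKY26 (0.66 and -0.93), WRKY75 (2.11 and -0.60) and WRKY39 (0.29 and -0.33). WRKY45 (1.17 and -0.21) and WRKY17 (0.38 and -0.19) were also called in opposite directions, but their starved and sufficient root arrays overlapped. In the overexpressor against starved wild type they were WRKY70 (-1.24 and 0.39), WRKY22 (-1.38 and 0.38), WRKY11 (-0.89 and 0.46), WRKY6 (-0.23 and 0.39) and WRKY57 (0.39 and -0.32). With AtNIGT1.2-VP induction they were WRKY26 (1.78 and -1.34), WRKY25 (1.13 and -0.57), WRKY6 (0.64 and -0.57), WRKY69 (0.57 and -0.60) and WRKY19 (0.65 and -0.34).

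In the starved overexpressor against nitrogen-sufficient wild type they were WRKY22 (-2.03 and 0.41), WRKY75 (1.2 and -1.28), WRKY45 (0.52 and -1.48), WRKY33 (-0.98 and 0.43), WRKY26 (0.70 and -0.55), WRKY57 (0.97 and -0.52) and WRKY11 (-0.33 and 0.34). The calls of WRKY6 and WRKY57 in overexpressor shoots, WRKY22 and WRKY57 in overexpressor roots, and WRKY11 in overexpressor against sufficient shoots were each lost when some single arrays were left out, as given with their values in the report.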

How the results depend on the processing

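Across the filters, the fit without an intensity trend, centred arrays and the replicate block, most counts of changed WRKY genes stayed within 1.5 times their value. The same held for a fit of only the arrays of the groups compared. The exceptions came with a filter at the 50th percentile, which tests fewer genes: overexpression in shoots gave 14 in place of 22, the overexpressor against sufficient shoots 17 in place of 27, and starvation in roots 15 in place of 25. The count for mock VP shoots, 13, ran from 7 to 15 with an array left out; it was 7 without mock replicate 2 and 8 without sufficient wild type replicate 1, and the cause was not tested. With the replicate number as a block the counts were 26, 22, 23, 12 and 26 in shoots (starvation, overexpression, induction, mock VP line, overexpressor against sufficient) and 22, 25, 33, 10 and 26 in roots, so the block moved no count by over 1.5 times. Of 174 values of named genes past the threshold, 22 lost the call under at least 1 setting, 13 of the 46 others gained one, and 0 reversed with a call. Before centring, the medians of the 2 groups compared differed by -0.05 to 0.10, which is the amount centring took from each change. Dim probe sets limit what can be said of the 12 WRKY genes tested in neither tissue, and 3 arrays per group limit all calls near the threshold.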

Other observations

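Among members below the level required for a test, WRKY43, a gene known from seed germination, was at 6.27, 5.99 and 5.80 in starved wild type roots and at 6.31, 6.03 and 6.06 in starved overexpressor roots. It was at 4.47, 4.70 and 4.53 in sufficient wild type roots and between 4.79 and 5.04 in the VP line. All 6 starved arrays thus stood above all 9 arrays of seedlings kept on nitrogen. WRKY56 was at 5.40, 5.50 and 5.80 in starved and at 4.98, 4.92 and 4.78 in sufficient wild type roots.

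In shoots WRKY38, which acts in basal defence downstream of the salicylic acid receptor NPR1, was at 5.16, 5.59 and 5.09 with estradiol and at 4.06, 4.01 and 4.21 in mock VP shoots. The groups did not overlap, and WRKY38 was not tested. These genes were chosen after their values were seen.

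WRKY54 and WRKY55 are neighbours in the RefSeq gene table with no protein-coding gene between them. In shoots WRKY54 rose with induction by 1.42 ± 0.20 and in the overexpressor by 1.16 ± 0.20, while WRKY55 passed the test in neither. WRKY70 and the WRKY-annotated AT3G56390 are likewise neighbours, and AT3G56390 was under the level required for a test in both tissues.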
